A study of Mus musculus with 51 samples.

Results

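The genes described here are those whose RNA level moved in opposite directions when Uba1 was partly depleted and when it was overexpressed in Myc-CaP tumors. They were found in 17 of the 51 RNA-seq libraries of the series, all from tumors grown under the skin of syngeneic male FVB mice, 6 to 8 weeks old, from Myc-CaP, a mouse prostate cancer cell line driven by Myc. The loss experiment set 7 sgUba1 tumors, grown from CRISPR-edited and partly depleted single-cell-derived sublines, against 3 sgNC tumors that carried a nontargeting guide. The gain experiment set 4 Uba1_OE tumors, transduced with a lentiviral vector that drives Uba1 from a CMV promoter and kept as a selected pool, against 3 tumors with the empty vector (EV). The study calls a sequenced Myc-CaP control with a nontargeting guide a clone. The sgNC against EV comparison may thus set a cloned line against a pool, which the labels do not settle. The 4 kinds of tumor shared the Myc-CaP parent and the FVB host, and their labels name no drug. Mice were injected in both flanks and the labels number tumors, not mice, so tumors may share a host and p-values measure only the spread between these tumors. The labels do not say which guide or which subline a given sgUba1 tumor came from. Of 16502 genes tested, 878 (5.32%) met the rule for a mirrored gene, with 335 (2.03%) higher in loss and lower in gain and 543 (3.29%) lower in loss and higher in gain. The rule asked for an adjusted p under 0.05 for the difference between the loss and gain effects, for opposite signs, and for an unadjusted p under 0.05 in each experiment. The values that chose a gene are given below as a description.

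UBA1 is the main E1 enzyme of the ubiquitin system. It activates ubiquitin with ATP and hands it to E2 enzymes, which work with E3 ligases to tag proteins for the proteasome or to change their activity and location. Interferons act on tumor and stromal cells through receptors and JAK kinases, and the genes they induce encode antiviral sensors, GTPases that attack intracellular vacuoles, and the machinery that loads peptides on MHC molecules. Much of a bulk tumor profile also comes from host cells, and in bulk samples fewer cells of a type and less RNA per cell cannot be told apart.

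The study used 2 guides against Uba1, shown here because they define the loss experiment, each written 5′ to 3′ with the NGG motif that follows it in the Uba1 transcript in capitals.
sgUba1 #1: taccaatgtcctcctcccgaAGG
sgUba1 #2: tagccgtggtatcaagctagTGG
Guide #1 matched coding exon 5 of 26 of Uba1 on the strand opposite to the gene, at chrX:20669136-20669155 (GRCm38), and guide #2 matched coding exon 6 on the strand of the gene, at chrX:20670263-20670282. Both matches were read from GENCODE M21 transcripts.

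Uba1 RNA (chrX:20658326-20683179) followed its label in the gain experiment and in part of the loss experiment. Levels scaled to library size (CPM) were 318, 284 and 298 in the EV tumors and 748, 645, 738 and 764 in the Uba1_OE tumors, so the groups did not overlap, as for 19.7% of all genes in gain and 10.8% in loss, and the gain was 2.41-fold (log2 1.27, SE 0.234, adjusted p 0.125 with all 17 tumors in the fit and 0.00503 with the gain tumors alone). The sgNC tumors held 314, 320 and 333 CPM. Replicates 1 to 3 of sgUba1 held 195, 199 and 206 CPM, below every control, and replicates 4 to 7 held 366, 356, 363 and 377 CPM, above every sgNC tumor. RNA level does not report the protein that an edited allele makes, so these libraries are called sgUba1 as labelled. Without replicates 4 to 7, 843 genes were mirrored, 510 of them among the 878.

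The Myc-CaP label was checked against epithelial genes and the driver Myc. Myc stood at 381 to 1690 CPM and Krt8 at 31.7 to 314 over the 17 tumors, while Krt18 (0 to 1.45), Epcam (0 to 0.249) and Cdh1 (0.24 to 1.66) were at or near 0. Library totals ran from 8652097 to 14168313 counts. Replicate 2 of sgNC and replicate 1 of Uba1_OE stood farthest from the other tumors of their groups, and some values without both are given beside the results.

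The loss and gain effects, each a log2 fold change against its own control, were opposed across the transcriptome. The sign differed for 63.2% of the genes tested, and over the 16502 genes Pearson's r was -0.345 and Spearman's rho was -0.393. Genes share libraries, so these are descriptions with no p. Among the genes at an unadjusted p under 0.05 in both experiments, 900 had opposite signs and 34 the same sign. By the same rule with equal signs, no gene moved in parallel (0%), although in the DESeq2 fit 13 did. Loss alone gave 1406 genes at an adjusted p under 0.05 (8.52%), with 602 higher and 804 lower. Gain alone gave 0 (0%), with 2096 genes (12.7%) at an unadjusted p under 0.05, a lowest adjusted p of 0.0913 and 227 calls in DESeq2. The difference between the effects gave 1698 (10.3%). With the larger of the 2 p-values adjusted over all genes, no gene passed, and the lowest value was 0.358, for S100a6. The gene just inside the rule was Artn (gain p 0.0499) and the one just outside was D2hgdh (gain p 0.05).

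**Figure D1:**
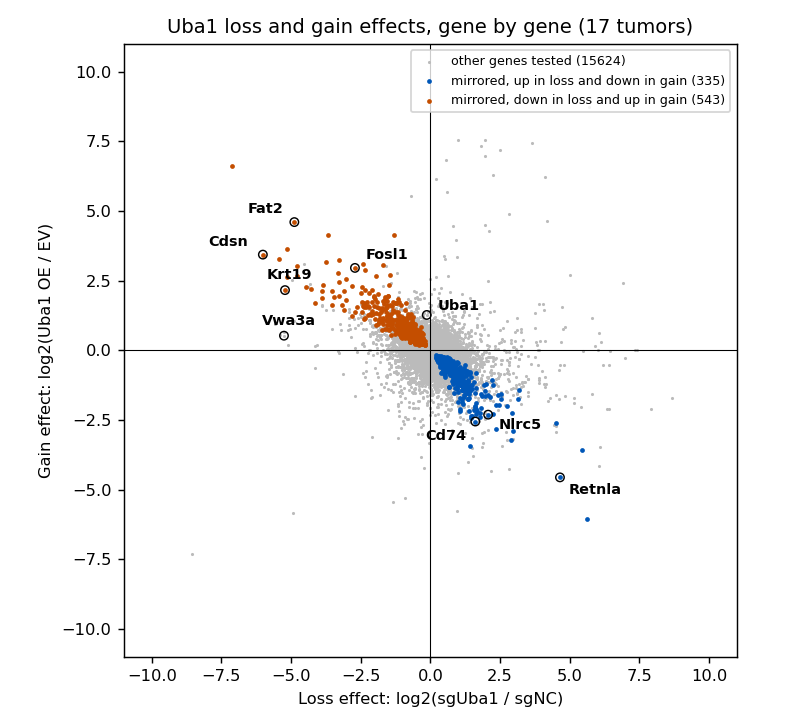
Each point is 1 of the 16502 genes tested, with the loss effect (log2 of sgUba1 over sgNC) on the x axis and the gain effect (log2 of Uba1_OE over EV) on the y axis. Blue points (335) were higher in loss and lower in gain and orange points (543) the reverse, and circled genes are named in the text.

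Genes of the interferon response were among the mirrored genes higher in loss. Of 45 type I interferon and antiviral genes tested, 43 were higher in loss and lower in gain, and 15 met the rule (33.3%, against 5.32% of all genes). Their median loss effect was 0.796 and their median gain effect -0.755, beside medians of -3.45e-05 and -0.00434 over all genes. The mean log2 CPM over these genes was 3.67 to 4.61 in sgUba1, 3.38 to 3.76 in sgNC, 1.92 to 3.48 in Uba1_OE and 3.54 to 3.89 in EV tumors. The number that met the rule fell to 6 without EV replicate 2 or 3, to 8 without the pair of tumors that stood apart and to 4 without the sgUba1 tumors that retained Uba1 RNA. In the last fit, 41 of the 45 kept opposite signs in this direction.

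Zbp1, a sensor of Z-form nucleic acid, was at 3.36, 6.48 and 7.23 CPM in EV, at 0.812, 2.09, 3.33 and 1.42 in Uba1_OE, at 3.29, 2.18 and 1.43 in sgNC and at 2.97, 7.82 and 10.7 (lowest, median, highest) in sgUba1. All Uba1_OE tumors were below all EV tumors, and only 1 of the sgUba1 tumors reached down into the sgNC range. The loss effect was 1.59 (SE 0.433, adjusted p 0.0339), the gain effect was -1.55 (SE 0.456, unadjusted p 0.00371), and their difference was 3.14 (adjusted p 0.00779), which passed in all 17 fits that left out 1 tumor. Epsti1, an interferon-induced stromal and epithelial protein, had 2.8, 4.63 and 2.8 CPM in EV and 1.01, 1.59, 1.25 and 1.2 in Uba1_OE. It had 1.6, 3.07 and 1.67 CPM in sgNC and 2.97, 5.7 and 5.95 (lowest, median, highest) in sgUba1. Its difference was 2.64 (SE 0.435, adjusted p 0.00321). Usp18, the protease that removes the ubiquitin-like modifier ISG15, was at 4.7, 4.28 and 7.01 CPM in EV and at 0.101, 1.2, 3.66 and 3.4 in Uba1_OE. It was at 7.42, 3.67 and 4.05 CPM in sgNC and at 8.6, 16.5 and 26.1 (lowest, median, highest) in sgUba1, with no overlap in either experiment. Its difference of 2.99 (adjusted p 0.031) was lost without any one of 6 tumors, including each EV tumor and sgNC replicates 2 and 3. Oas3, which makes the oligoadenylates that activate RNase L, differed by 2.55 (adjusted p 0.0204) and lost the call without EV replicates 2 or 3 or sgNC replicates 2 or 3. Irf7, an interferon-induced transcription factor, differed by 2.45 (adjusted p 0.018), and the receptor chaperone Rtp4 by 2.73 (adjusted p 0.0168). Irf7 lost the call without EV replicate 3 or sgNC replicate 2, and Rtp4 without EV replicate 3.

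Genes induced above all by interferon gamma moved the same way with larger medians and more spread. Of 28 tested, 24 were higher in loss and lower in gain, 7 met the rule, and the medians were 1.07 in loss and -1.2 in gain. The median for sgNC minus EV was -0.914, against -0.0777 for the type I list. The mean log2 CPM over the interferon gamma genes was 1.84 to 4.19 in sgUba1 and 2 to 2.48 in sgNC tumors. It was 1.19 to 2.24 in Uba1_OE and 1.96 to 3.17 in EV tumors. Nlrc5, the transactivator of MHC class I genes (chr8:94434356-94527272), had large effects in both experiments. It was at 8.17, 17.9 and 17.6 CPM in EV, at 1.62, 2.19, 5.25 and 2.52 in Uba1_OE, at 8.61, 3.37 and 9.12 in sgNC and at 8.29, 26.9 and 55.1 (lowest, median, highest) in sgUba1. Uba1_OE and EV did not overlap, and in loss 1 sgUba1 tumor lay within the sgNC range. Nlrc5 was 4.21-fold higher in loss (log2 2.07, SE 0.497, adjusted p 0.0207) and 4.95-fold lower in gain (log2 -2.31, SE 0.527, unadjusted p 0.000461), and its difference of 4.38 (adjusted p 0.00327) passed in every fit that left out 1 tumor. Ciita, its counterpart for MHC class II, differed by 2.3 (adjusted p 0.0364).

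Igtp, Irgm2, Tgtp2 and Gbp3 encode interferon-inducible GTPases. Igtp was at 3.58, 16.2 and 8.63 CPM in EV, at 1.01, 1.79, 3.91 and 1.75 in Uba1_OE, at 7.68, 3.47 and 2.38 in sgNC and at 2.97, 10.1 and 37.3 (lowest, median, highest) in sgUba1. The highest value was replicate 3, the groups overlapped in both experiments, and the difference of 3.7 (SE 0.973, adjusted p 0.0261) was lost without any one of 6 tumors. Replicate 3 of sgUba1 was also the highest tumor of its group for Irgm2 (34.4 CPM, difference 2.82), Tgtp2 (29.3 CPM, difference 3.85), Gbp3 (18.8 CPM, difference 2.97), Ciita (14.3 CPM) and the immunoproteasome subunit Psmb9 (15.9 CPM, difference 2.89). Without it, 21 of 27 interferon gamma genes tested were higher in loss and lower in gain, with a median loss effect of 0.711, and 5 met the rule. Without EV replicate 2, 2 met it. These genes have close paralogs, so estimated counts may be shared between family members.

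Promoter sequence of the mirrored interferon genes is shown because the members moved together. RefSeq promoter windows (GRCm38.p6), from 250 bases before to 50 after the start of transcription, were held for 251 of the genes higher in loss and 416 of the genes lower in loss. The core of the interferon-stimulated response element, searched as a pair of GAAA runs with any 2 bases (NN) between them on both strands, occurred in 8.9% of 326 windows of genes higher in loss, in 1.78% of 563 windows of genes lower in loss, in 3.22% of the windows of genes tested and in 3.44% of all 32851 windows. Among genes higher in loss it was in 15.2% of 125 windows where the gene was under 1 CPM in cultured control Myc-CaP cells and in 4.98% of 201 windows where it was at or above 1 CPM. The interferon gamma-activated site TTCNNNGAA was in 7.67%, 6.22%, 7.17% and 8.3% in the same order, and the AP-1 site TGANTCA in 6.75%, 7.46%, 6.13% and 7.81%. The 120 bases before the start are printed for 5 members, with every match to these 3 patterns in capitals, and a match of letters is not a test of binding.
Igtp (chr11:58199436-58199555, plus strand): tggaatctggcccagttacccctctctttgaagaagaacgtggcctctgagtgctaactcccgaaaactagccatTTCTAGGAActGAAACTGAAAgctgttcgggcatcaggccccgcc
Tgtp2 (chr11:49064213-49064332, minus strand): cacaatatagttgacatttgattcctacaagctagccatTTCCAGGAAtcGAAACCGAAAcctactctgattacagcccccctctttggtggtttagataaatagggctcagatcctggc
Gbp3 (chr3:142559924-142560043, plus strand): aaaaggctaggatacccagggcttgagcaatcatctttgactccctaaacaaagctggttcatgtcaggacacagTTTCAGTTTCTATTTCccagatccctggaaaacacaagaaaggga
Oas3 (chr5:120777660-120777779, minus strand): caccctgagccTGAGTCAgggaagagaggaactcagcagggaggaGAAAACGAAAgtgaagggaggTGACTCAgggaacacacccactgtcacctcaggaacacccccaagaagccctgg
Ctss (chr3:95526666-95526785, plus strand): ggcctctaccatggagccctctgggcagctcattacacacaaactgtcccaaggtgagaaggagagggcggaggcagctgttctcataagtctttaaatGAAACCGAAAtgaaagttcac
In Igtp and Tgtp2, and also in Irgm2, the TTCNNNGAA pattern began 11 bases before the interferon element. Gbp3 held 2 overlapping interferon elements on the reverse strand. In Oas3 the element stood between 2 AP-1 patterns. The windows of Epsti1, Irf7 and Psmb9 held none of the 3 patterns.

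The 3 genes of the MHC class II list that were tested all met the rule, and the H2 genes on the lists were not analysed here. Cd74, the invariant chain that chaperones class II molecules, was at 63, 126 and 155 CPM in EV, at 21.5, 18.1, 19.9 and 18.4 in Uba1_OE, at 61.2, 26.5 and 29.4 in sgNC and at 50.2, 69.6 and 309 (lowest, median, highest) in sgUba1. The Uba1_OE tumors lay close together and below every other tumor, and the sgUba1 and sgNC tumors overlapped. Cd74 was 5.87-fold lower in gain (unadjusted p 0.000258, and adjusted p 0.0425 with the gain tumors fitted alone) and 3.06-fold higher in loss (adjusted p 0.0659), with a difference of 4.17 (SE 0.767, adjusted p 0.0054). Ctss, the protease cathepsin S that trims the invariant chain, was at 72, 60.9 and 105 CPM in EV, at 13.5, 25.1, 50.1 and 32.7 in Uba1_OE and at 53.9, 43.1 and 30.7 in sgNC. In sgUba1 it was at 64.9, 100 and 128 CPM (lowest, median, highest), and the groups did not overlap in either experiment. Its difference was 2.55 (adjusted p 0.0054), and it was listed at 0 in cultured control cells.

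Markers of macrophages lay mostly on the same sides as these genes. Of 22 macrophage and monocyte genes, 17 were higher in loss and lower in gain, 7 met the rule in that direction and 1, Mertk, in the other. Adgre1, the F4/80 antigen, was at 17, 15.5 and 20.7 CPM in EV, at 3.75, 9.07, 15.3 and 12.8 in Uba1_OE, at 8.44, 13.1 and 10.6 in sgNC and at 15.6, 23.8 and 29.6 (lowest, median, highest) in sgUba1. The groups did not overlap in either experiment, and the difference was 1.93 (SE 0.448, adjusted p 0.0149). The complement genes C1qa (difference 1.68, adjusted p 0.00926) and C1qc (1.38, adjusted p 0.0372) and the membrane protein gene Ms4a7 (2.44, adjusted p 0.0174) also met the rule. The summed level of the 22 markers was 871 to 1400 CPM in sgUba1, 584 to 1220 in sgNC, 320 to 984 in Uba1_OE and 735 to 859 in EV. The number that met the rule upward fell to 2 without EV replicate 3 and to 1 without the sgUba1 tumors that retained Uba1 RNA. Mertk, a receptor for apoptotic cells, was also at 38.6 CPM in cultured control cells, unlike the other members named here, which were at or near 0 there.

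T and NK cell genes were scarce. Of 27 in the table, 22 had a mean under 1 CPM, and Gzmb and Ifng did not pass the filter on low counts. Of 11 tested, all were lower in gain and 8 were higher in loss, and Cd8a and Cd4 met the rule. Cd8a, a chain of the CD8 co-receptor, was at 13.8, 8.09 and 10.7 CPM in EV, at 1.42, 4.29, 5.58 and 6.9 in Uba1_OE, at 3.37, 2.58 and 3.01 in sgNC and at 4.14, 12.5 and 20.3 (lowest, median, highest) in sgUba1. The groups were apart in both experiments, and the sgUba1 tumors with low Uba1 RNA held 6.09, 4.14 and 4.37 CPM. Its difference was 3.18 (SE 0.765, adjusted p 0.0174) and was lost without EV replicate 1 or sgNC replicate 2. Cultured control cells held 2.02 CPM of Cd8a. Prf1, perforin, was at most at 1.87 CPM in any tumor and its difference of 2.14 had an adjusted p of 0.21. The integrin gene Itgax of dendritic cells (difference 3.16, adjusted p 0.00491) and the cytokine gene Il1b (2.83, adjusted p 0.0104) met the rule, and their differences passed in every fit that left out 1 tumor. Each was the 1 gene of its list to meet the rule, of 8 dendritic cell and 7 neutrophil genes, and neither list had any without sgNC replicate 2 or without the pair that stood apart. The 7 neutrophil genes had medians of 0.498 in loss and 0.499 in gain, and 2 were higher in loss and lower in gain.

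Several genes that the study names in the interferon path did not meet the rule. The chemokine gene Cxcl10 had a loss effect of 1.04 (unadjusted p 0.0555) and a gain effect of -1.46 (unadjusted p 0.0174). Its difference was 2.49 (adjusted p 0.0442). Cxcl9 had a loss effect of 1.06 (unadjusted p 0.147) and a gain effect of -1.94 (unadjusted p 0.0199). Its difference was 3.0 (SE 1.03, adjusted p 0.0722). The kinase gene Jak1 was at 104 to 116 CPM in EV and at 110 to 152 in Uba1_OE, with a loss effect of -0.06, a gain effect of 0.19 and a difference of -0.25 (SE 0.159, adjusted p 0.324). Ifngr1, Irf1, B2m and the E3 ligase gene Stub1 had differences of 0.10, 0.24, 0.48 and 0.01 with adjusted p of 0.824, 0.742, 0.579 and 0.973. These are RNA levels, whereas the study's findings on JAK1, IFNGR1, IRF1 and STUB1 concern protein. It reports that JAK1 protein was stabilized when UBA1 was inhibited, which RNA level does not report. The phosphatase gene Ptpn6, which restrains JAK signaling, met the rule (difference 1.48, adjusted p 0.0145). It was at 0.882 CPM in cultured control cells, against group means of 7.243 (Uba1_OE) to 18.82 (sgUba1) in the tumors.

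Most of the largest mirrored genes higher in loss were outside these lists. Retnla, a secreted product of alternatively activated macrophages, was at 5.59, 2.2 and 13.3 CPM in EV, at 0.304, 0.0997, 0.583 and 0.11 in Uba1_OE, at 0.337, 0.198 and 0.714 in sgNC and at 0.353, 3.63 and 50.2 (lowest, median, highest) in sgUba1. The sgNC and Uba1_OE tumors overlapped, and the sgUba1 and EV tumors spread over a wide range. Its difference was 9.21 (SE 2.1, adjusted p 0.0137). Fam89a was at 17, 14 and 12.5 CPM in EV, at 0.203, 2.09, 1.67 and 5.59 in Uba1_OE and at 2.95, 0 and 2.62 in sgNC. In sgUba1 it held 4.33, 10.6 and 2.34 CPM in replicates 1 to 3 and 63.1, 73.6, 72 and 81.2 in replicates 4 to 7. Gsta1, a glutathione transferase gene, had a difference of 4.61 (SE 0.817, adjusted p 0.00487) and was at 22.1 to 82.9 CPM in sgUba1 against 1.59 to 10.1 in sgNC, 1.12 to 6.02 in Uba1_OE and 5.78 to 10.8 in EV. Col6a5 (5.18), Ctxn3 (4.87), Ct55 (4.51), Usp50 (4.42), Ano9 (4.03), Shroom1 (3.89), Mybpc1 (3.83), Espn (3.81) and Aqp11 (3.59) had the differences given. Of these 9, the differences of Ctxn3 and Aqp11 passed in every fit that left out 1 tumor. Fkbp5, an immunophilin gene, had a difference of 0.83 (adjusted p 0.041) that was lost in 13 of the 17 fits that left out 1 tumor.

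**Figure D2:**
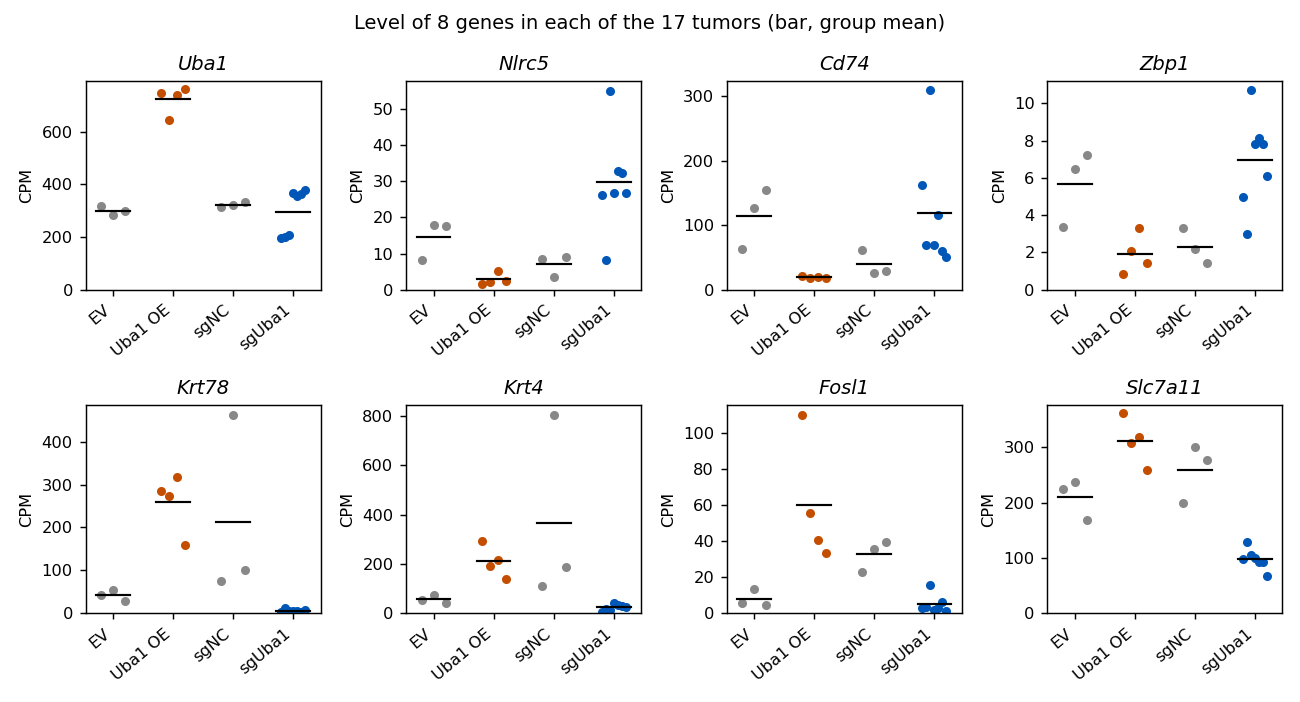
Level in CPM of 8 genes in each of the 17 tumors, with 1 point per tumor, a bar at the group mean and axes from 0. Uba1_OE tumors lay below EV tumors for Nlrc5, Cd74 and Zbp1 and above them for Krt78, Krt4, Fosl1 and Slc7a11, and sgUba1 tumors lay mostly on the other side of sgNC.

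Keratins were among the largest mirrored genes lower in loss. Of 10 keratin genes tested, 6 met the rule, with list medians of -3.88 in loss, 2.02 in gain and 2.18 between the sgNC and EV control tumors. Keratins are the intermediate filament proteins of epithelial cells. Krt78 (chr15:101946001-101954287) was at 42.8, 53.7 and 29.1 CPM in EV, at 284, 273, 318 and 160 in Uba1_OE, at 74.9, 463 and 101 in sgNC and at 2.57, 5.38 and 12 (lowest, median, highest) in sgUba1. No tumor of either experiment overlapped its controls, and the sgUba1 tumors lay below every other tumor. Krt78 was 35.3-fold lower in loss (log2 -5.14, SE 0.48, adjusted p 7.87e-05) and 6.18-fold higher in gain (log2 2.63, SE 0.578, unadjusted p 0.000321, and adjusted p 0.0425 with the gain tumors fitted alone). Its difference was -7.77 (SE 0.813, adjusted p 0.000389).

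Krt4 was at 54.3, 73.3 and 43.6 CPM in EV, at 293, 192, 218 and 138 in Uba1_OE, at 112, 806 and 187 in sgNC and at 5.61, 24.9 and 43.1 (lowest, median, highest) in sgUba1. The order of the group medians was the one seen for Krt78, but by group mean sgNC (368.6 CPM) stood above Uba1_OE (210.1 CPM). The difference for Krt4 was -5.77 (SE 0.868, adjusted p 0.00221). Krt19 was at 21.5, 34.5 and 36 CPM in EV, at 142, 141, 162 and 105 in Uba1_OE, at 230, 1030 and 296 in sgNC and at 2.83, 7.66 and 54.6 (lowest, median, highest) in sgUba1, with a difference of -7.38 (SE 1.18, adjusted p 0.00289). Here the sgNC control, not the Uba1_OE tumor, was the highest group. Krt15 (difference -7.48), Krt13 (-8.71) and Krt79 (-6.2) completed the 6. By group mean sgNC was also above Uba1_OE for Krt15 (654 and 543 CPM) and Krt79 (7.365 and 6.244), and below it for Krt78 and Krt13. All 6 differences passed in every fit that left out 1 tumor, although the number that met the whole rule fell to 4 without EV replicate 1. Cultured control Myc-CaP cells, which hold no host skin, had 869 CPM of Krt4, 890 of Krt15, 295 of Krt19 and 216 of Krt78. The summed level of 16 skin keratinocyte markers, 12 of them under 1 CPM on average, was 17.6 to 92.4 CPM in sgUba1, 279 to 1740 in sgNC, 420 to 1470 in Uba1_OE and 93 to 215 in EV, and Krt15 and Krt78 are on that list.

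Cdsn, an adhesion protein of cornified epithelium, was at 3.69, 5.09 and 3.88 CPM in EV, at 101, 31.2, 31 and 20.6 in Uba1_OE, at 11.9, 286 and 12.5 in sgNC and at 0.554, 1.58 and 2.97 (lowest, median, highest) in sgUba1, with no overlap in either experiment (difference -9.45, SE 1.4, adjusted p 0.00209). Fosl1, which encodes the AP-1 subunit FRA1, was at 5.48, 13.2 and 4.42 CPM in EV, at 110, 55.4, 40.4 and 33.3 in Uba1_OE, at 22.6, 35.8 and 39.7 in sgNC and at 1.39, 3.18 and 15.4 (lowest, median, highest) in sgUba1. It was 6.53-fold lower in loss (adjusted p 0.00914) and 7.78-fold higher in gain (unadjusted p 0.000656), with groups apart in both. Clcf1, a cytokine of the interleukin 6 family, differed by -7.8 (adjusted p 0.00192) and was at 0.711 to 7.42 CPM in sgUba1 against 16.6, 179 and 32.8 in sgNC. The cadherin Fat2 (difference -9.49), the transcription factor Pax2 (-8.78), the urea transporter Slc14a1 (-7.84), the adhesion receptor Adgra1 (-5.76) and Zan (-5.56) followed. For Pax2, Fat2, Cdsn, Slc14a1 and Krt13 the highest Uba1_OE tumor was replicate 1 by a wide margin, and without that tumor and sgNC replicate 2 the keratin list kept 5 genes that met the rule.

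Single genes of amino acid supply and stress met the rule, while their lists did not move as a whole. Slc7a11, the cystine carrier, was at 225, 237 and 169 CPM in EV, at 362, 307, 319 and 259 in Uba1_OE, at 200, 300 and 276 in sgNC and at 68.1, 97.4 and 129 (lowest, median, highest) in sgUba1. Both experiments were free of overlap, loss was 2.64-fold lower (log2 -1.4, SE 0.162, adjusted p 0.000703), gain 1.48-fold higher (log2 0.57, SE 0.19, unadjusted p 0.00872) and the difference -1.97 (adjusted p 0.00117). Psat1, a serine synthesis enzyme, was at 188, 173 and 167 CPM in EV, at 504, 320, 222 and 226 in Uba1_OE, at 181, 225 and 201 in sgNC and at 81.8, 100 and 125 (lowest, median, highest) in sgUba1. Its difference was -1.82 (SE 0.301, adjusted p 0.00323), and the sgNC and EV levels of Psat1 and Slc7a11 lay closer together than those of the keratins. Trib3 (-2.79) and Chac1 (-2.9), targets of the ATF4 stress response, met the rule as well. Over the 25 genes of the unfolded protein and integrated stress list, 4 met the rule downward in loss and 1 upward, with medians of -0.215 in loss and -0.106 in gain, and the 4 fell to 1 without EV replicate 3 and to 2 without EV replicate 2 or Uba1_OE replicate 1. Of 15 genes of the NRF2 oxidative stress list, 2 met it downward and 1 upward (medians 0.0938 and -0.045), and none did without EV replicate 3. The heat shock chaperone gene Hspa4l (-1.65) was the 1 of 14 heat shock genes that met it, and 12 of the 14 were higher in loss (medians 0.306 and 0.13).

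Glycolysis and hypoxia genes leaned one way. Of 22 tested, 19 were lower in loss and higher in gain and 4 met the rule, with medians of -0.492 and 0.313. Pgam1 was at 941, 931 and 894 CPM in EV, at 1500, 1240, 1200 and 1080 in Uba1_OE, at 835, 747 and 801 in sgNC and at 479, 532 and 712 (lowest, median, highest) in sgUba1, apart in both experiments, with a difference of -0.96 (SE 0.176, adjusted p 0.0054). Pgk1 (-1.29) and Aldoa, listed under 2 gene identifiers (-0.91 and -1.83), met the rule too. The 4 fell to 2 without any one EV tumor, without Uba1_OE replicate 1 or 3, without sgNC replicate 1 and without the pair that stood apart. The first Aldoa entry lost its call without any EV tumor or sgNC replicate 1, the second without EV replicates 1 or 3, and Pgk1 without EV replicate 2. Of 36 proliferation genes, 29 were lower in loss and higher in gain but none met the rule, and without the sgUba1 tumors that retained Uba1 RNA that count was 6. Erythroid genes, markers of red cells, were lower in loss and higher in gain for 6 of 6 tested, and Hba-a1 (difference -2.63) and Hbb-bs (-3.08) met the rule. None met it without any one of 8 tumors (each EV tumor, Uba1_OE replicates 3 and 4, sgNC replicates 2 and 3 and sgUba1 replicate 4) or without the pair that stood apart. The list medians were -1.3 in loss, 1.43 in gain, 2.03 for sgNC minus EV and -0.732 for sgUba1 minus Uba1_OE. Among the other lists, none of 32 proteasome subunits, 35 oxidative phosphorylation, 20 fibroblast, 16 endothelial or 19 skeletal muscle genes met it. Proteasome subunits were higher in loss for 32 of 32 genes (6 at an adjusted p under 0.05) and lower in gain for 11. The Myc antagonist Mxi1 (-1.49) met it as 1 of 10 Myc network genes, of which 4 were higher in loss and lower in gain and 3 the reverse, and it no longer met it without any one EV tumor or without Uba1_OE replicate 1 or 3. The cholesterol enzymes Idi1 (-1.81) and Msmo1 (-1.7) met it as 2 of 22, with 13 lower in loss and higher in gain and 5 the reverse. The cholesterol count was 0 without EV replicate 3, Uba1_OE replicate 1, sgNC replicate 2 or sgNC replicate 3 and without the pair that stood apart, and with the leukocyte score 13 were higher in loss and lower in gain and 4 the reverse.

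**Figure D3:**
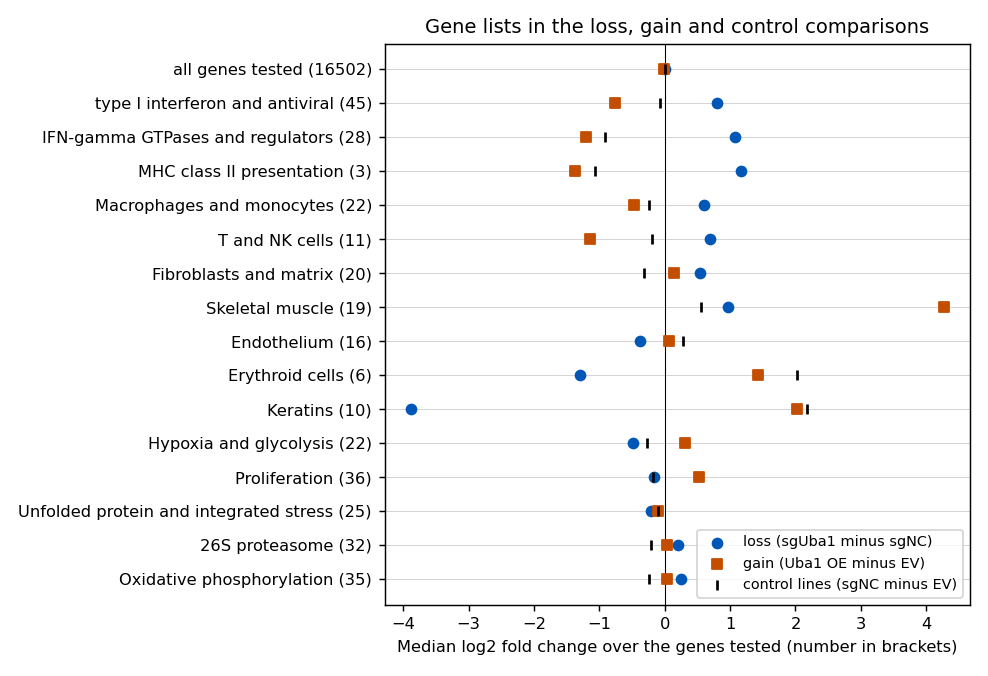
Median log2 fold change of 15 gene lists and of all genes tested in loss (blue circle), gain (orange square) and between the control tumors (black bar, sgNC minus EV), with the number of genes tested in brackets. The interferon and keratin lists lie on opposite sides of 0 in loss and gain, and the control difference of the keratins (2.18) lies beside their gain effect (2.02).

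The control tumors entered each experiment on opposite sides of the difference, so the values of sgNC against EV stand beside the mirror. Over all genes, 3 (0.0182%) differed between the controls at an adjusted p under 0.05, with 2036 (12.3%) at an unadjusted p under 0.05 and 224 in DESeq2. None of the 878 mirrored genes was among the 3, but 473 (53.9%) had an unadjusted p under 0.05. sgNC lay below EV for 322 of the 335 genes higher in loss and above EV for 518 of the 543 genes lower in loss. The loss minus gain difference is the sgUba1 minus Uba1_OE difference less the sgNC minus EV difference, so choosing genes on it favors a control difference of that sign. The control term made up a median of 34.6% of it in the genes higher in loss and 42.3% in the genes lower in loss. Median log2 fold changes of the genes higher in loss were 0.88 in loss, -0.8 in gain, -0.548 for sgNC minus EV and 1.13 for sgUba1 minus Uba1_OE. For the genes lower in loss they were -0.764, 0.702, 0.638 and -0.879.

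With the controls exchanged, that is sgUba1 against EV and Uba1_OE against sgNC, the medians shrank to 0.271 and -0.197 for the genes higher in loss and to -0.182 and 0.0527 for the genes lower in loss. By the same rule 222 genes were then mirrored, 42 of them among the 878. In mean log2 CPM over the 335 genes, sgUba1 tumors stood at 3.95 to 4.46 and EV tumors at 3.89 to 4.08, while sgNC tumors stood at 3.14 to 3.60 and Uba1_OE tumors at 2.50 to 3.34. Over the 543 genes, sgUba1 tumors stood at 4.42 to 4.77 and EV at 4.74 to 4.90, with sgNC at 5.15 to 6.04 and Uba1_OE at 5.29 to 6.07. Group means of sgUba1 and Uba1_OE lay beyond both controls on opposite sides for 235 of the 335 and 277 of the 543 genes. The groups did not overlap in either experiment for 137 and 245 of them (1.3% and 2.07% of all genes in these directions, 0.194% in the same direction and 3.56% in any). Nlrc5 (sgNC minus EV -1.04, adjusted p 0.468), Slc7a11 (0.30, adjusted p 0.596) and Krt78 (2.35, adjusted p 0.17) have means of that kind. Krt19 (4.08, adjusted p 0.14) does not, and neither do Krt4, Krt15 and Krt79.

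Vwa3a shows a gene that only the control separates. It was at 25.5 to 32.1 CPM in the sgNC tumors and at 0.424 to 1.67 in the other 14, so its loss effect of -5.26 (adjusted p 3.14e-09) had no counterpart in gain (0.53, unadjusted p 0.163), and the sgNC minus EV difference was 5.28 (adjusted p 9.27e-07). Arhgap44 was at 0, 0.198 and 0 CPM in sgNC, at 0.863 to 2.2 in EV and 0.698 to 2.41 in Uba1_OE and at 1.8 to 8.37 in sgUba1, and its gain p was 0.968. In cultured cells, sgUba1 minus sgNC was -5.065 for Vwa3a (adjusted p 3.32e-08) and 9.232 for Arhgap44 (adjusted p 3.6e-05).

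**Figure D4:**
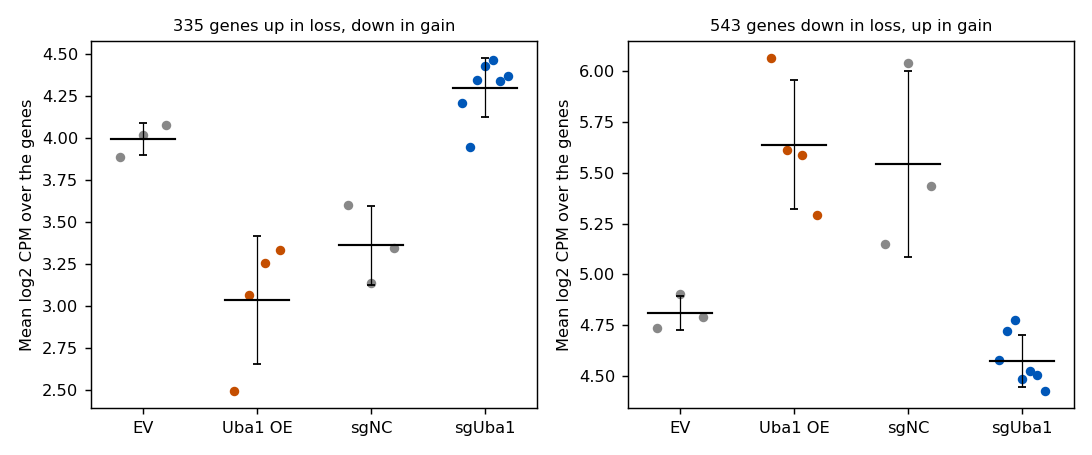
Mean log2 CPM in each tumor over the 335 genes higher in loss (left) and the 543 genes lower in loss (right), with 1 point per tumor, a bar at the group mean and whiskers of 1 SD. The genes were chosen on these tumors, so the gaps within each experiment are a description, and sgNC lies near Uba1_OE and EV near sgUba1 on both sides.

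Host tissue differed between the tumors, and its values stand beside the 2 directions unequally. Of the genes higher in loss, 147 of 335 (43.9%) were under 1 CPM in cultured unstimulated control Myc-CaP cells, against 18 of 543 (3.31%) of the genes lower in loss and 23.9% of all genes tested. The correlation of the effects was -0.572 over the 12551 genes at or above 1 CPM in those cells and -0.144 over the 3951 genes below it. The mean log2 CPM of leukocyte markers was 2.49 to 3.14 in sgUba1, 2.14 to 2.64 in sgNC, 1.42 to 2.43 in Uba1_OE and 2.4 to 2.62 in EV. That of skeletal muscle markers was 0.384 to 3.27, 0.00309 to 0.843, -0.0352 to 5.1 and -0.0895 to 0.231 in the same order. With the leukocyte score in the fit, 327 genes were mirrored, of which 164 were among the 878, and these were 22 of the 335 and 142 of the 543. With the muscle score 368 of the 878 were kept, and with leukocyte, muscle, fibroblast and endothelium scores together 81 were kept, 6 higher and 75 lower in loss. A leukocyte score shares genes with the mirrored set and each added score costs 1 of the 13 residual degrees of freedom. How much of the mirror follows from tissue make-up cannot be told apart from a change in the tumor cells in either direction, and was not tested beyond these fits.

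Position in the genome was uneven. On chromosome 19, 80 of 546 genes tested were mirrored (14.7%), 70 of them lower in loss, while the other chromosomes held 2.79% to 6.16%. Over 316 chromosome 19 genes with a mean log2 CPM of at least 4, the median effect was -0.228 in loss, 0.189 in gain and 0.066 for sgNC minus EV. With each gene centred over the tumors and relative to all other chromosomes, chromosome 19 genes stood at -0.415, -0.377 and -0.365 on the log2 scale in sgUba1 replicates 1 to 3 and at 0.0509, 0.0194, 0.0123 and -0.041 in replicates 4 to 7. They stood at 0.154 to 0.219 in Uba1_OE, at -0.0613 to 0.0928 in EV and at -0.12, 0.351 and 0.0463 in sgNC. The sgUba1 tumors with low Uba1 RNA were thus below all other tumors, and the Uba1_OE tumors were above all EV tumors. Fosl1, Clcf1, Pax2, Psat1, Pgam1 and Mxi1 are on chromosome 19. Other chromosomes also separated sgUba1 replicates 4 to 7 from 1 to 3. Replicates 4 to 7 stood at -0.298 to -0.12 on chromosomes 3, 6, 8 and 9, against -0.00865 to 0.126 in replicates 1 to 3. On chromosomes 5, 11 and 15 replicates 4 to 7 stood at 0.098 to 0.283, against -0.215 to -0.0429. On chromosome 12 replicates 4 to 7 stood at -0.141 to 0.038, against 0.192 to 0.299. On the first principal component they lay at -69.6 to -64.0, against -0.942 to 6.40. The mirrored genes differed little from all genes tested in transcript composition, with a median GC content of 49.9% (higher in loss), 51.8% (lower in loss) and 49.7% (all).

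**Figure D5:**
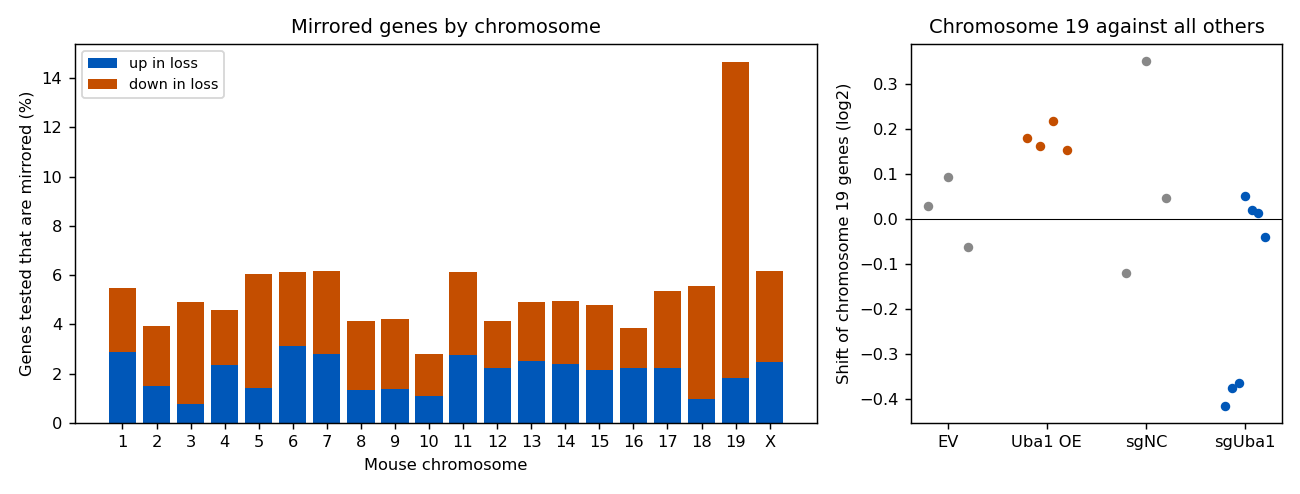
Left, percent of the genes tested on each mouse chromosome that were mirrored, split by direction. Right, median log2 level of 316 chromosome 19 genes relative to all other chromosomes, with 1 point per tumor, where 3 sgUba1 tumors lie at -0.415 to -0.365 and the Uba1_OE tumors at 0.154 to 0.219.

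The direction of the mirrored genes was then read in libraries that did not choose them. TAK-243 blocks the UBA1 enzyme. In 5 Myc-CaP tumors of treated mice against 6 of vehicle-treated mice, 632 of 868 mirrored genes tested (72.8%) lay on the side of Uba1 loss, with 224 of 325 genes higher in loss also higher and 408 of 543 genes lower in loss also lower. Leaving out 1 tumor gave 524 to 717. Over all genes, 52.4% were higher with TAK-243, beside 68.9% of the genes higher in loss and 24.9% of the genes lower in loss. The effects were small, with medians of 0.1 and -0.15, and few passed: 1 was called up and 4 down among the mirrored genes, with 0.145% called among all genes (0.0867% up and 0.0578% down). In 4 B16-BL6 melanoma tumors with sgUba1 against 3 with the control guide, 443 of 819 (54.1%) lay on the side of loss. There 57.6% of the genes higher in loss and 48.1% of the genes lower in loss were higher, near the 52.6% of all genes. Few were called: 0 up and 2 down among the genes higher in loss, and 3 up and 2 down among the genes lower in loss (0.724% of all genes called, 0.268% up and 0.456% down). At an unadjusted p under 0.05, 2861 of 17539 genes differed in that comparison. In 2 cultures of Myc-CaP cells with sgUba1 against 2 with sgNC, 499 of 782 (63.8%) lay on the side of loss. There 70.7% of the genes higher in loss and 39.3% of the genes lower in loss were higher, beside 49.7% of all genes. These cultures lack host tissue but may be of the same sublines as the tumors. They also show the sgNC difference of Vwa3a, so they are not separate from differences of that control line. Of the genes higher in loss, 82 of 242 were called up and 11 down, and of the genes lower in loss, 175 of 540 were called down and 83 up, beside 29.7% called over all genes, 16.2% up and 13.6% down.

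The lists parted in these libraries, where 52.4% (TAK-243), 52.6% (B16-BL6) and 49.7% (cultured cells) of all genes were higher. Type I interferon genes were higher with TAK-243 in 43 of 45, in B16-BL6 sgUba1 tumors in 43 of 45 and in cultured sgUba1 cells in 26 of 31, with medians of 0.574, 0.38 and 0.313. Interferon gamma genes were higher in 16 of 27, 26 of 27 and 12 of 21, with medians of 0.116, 0.706 and 0.0795. Glycolysis and hypoxia genes were lower with TAK-243 in 22 of 22 and lower in cultured sgUba1 cells in 19 of 20 (medians -0.428 and -0.386). Proliferation genes were lower with TAK-243 in 36 of 36 and higher in 22 of 36 in B16-BL6. Keratins had a median of -0.204 with TAK-243 and -0.0158 in cultured cells. Krt19 was lower in cultured sgUba1 cells by a log2 of -6.17 (adjusted p 1.97e-11) and Krt78 by -0.67 (adjusted p 7.27e-05), whereas Krt4 was higher by 0.37 (adjusted p 0.000156). Slc7a11 was lower in cultured cells by -1.42 (adjusted p 3.32e-08), close to its loss effect in tumors.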

How the data were processed

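Poly(A) RNA libraries, as the labels describe them, were quantified by the authors. Their processing notes name kallisto and the mm10 build, with the version and annotation not given in the sources used here. The study's methods name a ribosomal depletion kit instead. The authors made and deposited estimated counts per gene with kallisto, unscaled and not pooled over samples. These expected counts are fractional and were rounded to whole numbers here, although whole counts had been assumed when the tests were laid out. The deposited TPM values served 1 alternative only. H2 genes on the lists were not analysed here, and some named genes are not reported here.

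The 17 tumors were fitted together with edgeR 4.0.16 (TMM scaling, filterByExpr, glmQLFit and glmQLFTest; R 4.3.3, limma 3.58.1), which kept 16502 of 40077 genes with 13 residual degrees of freedom. Contrasts were loss, gain, loss minus gain and sgNC minus EV, with Benjamini-Hochberg adjustment over all genes tested, and all tests were two-sided. CPM are TMM-scaled. Totals were 8652097 to 14168313 counts, and counting error sets the precision of the lowest genes. No 2 replicates agreed within sampling noise over 33 pairs. Levels in culture are means of the unstimulated control cell libraries (2 sgNC and 2 untreated). TAK-243, B16-BL6 and cultured-cell libraries were fitted separately, the last from 8 libraries. Tissue scores are mean log2 CPM over marker lists.

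The members and lists were chosen with earlier results of these data known. Named genes were the 12 mirrored genes in each direction with the largest smaller effect and a mean log2 CPM of at least 1, up to 6 mirrored genes of each list in that order, genes the paper names, and Krt19, Krt78, Cd74, Vwa3a and Arhgap44. S100a6, Artn, D2hgdh, Krt8, Krt18, Epcam, Cdh1 and Myc were added for the limits of the rule and the check of the cell type. The procedure was tested on simulated counts with planted effects and the same dispersion for all genes. The simulation held no differences of tissue or control line, so it cannot speak to those. Alternatives were DESeq2 1.42.0, limma-voom, other scaling and filters, a replicate block, tissue scores as covariates, exchanged controls, stricter rules and each tumor left out. Guides came from the study's supplementary table, and positions from GENCODE M21 (GRCm38), which held 16004 of the genes tested.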

Additional observations from a re-analysis of the deposited data

Results flagged for a closer look

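Of 160 gene and group combinations examined for 1 tumor far from the rest of its group by Dixon's criterion, 24 stood out. The criterion's rate of about 1 in 20 holds for normal and independent values. These are CPM of genes that share tumors, many of them chosen on these tumors, so the 24 are a description. In sgUba1, replicate 3 was the far tumor for 12 genes. Its interferon genes stood at 37.3 CPM for Igtp (the others 2.97 to 14), 29.3 for Tgtp2 (2.5 to 11.2), 18.8 for Gbp3 (3.99 to 9.22), 15.9 for Psmb9 (2.19 to 5.29) and 14.3 for Ciita (3.05 to 6.82). The same tumor held 50.2 CPM of Retnla (0.353 to 10.9), 24.1 of Col6a5 (0.554 to 9.54), 76.2 of Krt15 (1.48 to 28.9), 15.4 of Fosl1 (1.39 to 6.08), 7.42 of Clcf1 (0.711 to 3.28), 1.17 of Pax2 (0 to 0.481) and 0.625 of Krt13 (0 to 0.079). It was thus high for genes of both directions. Replicate 2 was far from the others for Krt19 (54.6 CPM, the others 2.83 to 13.6) and Mxi1 (52.8, the others 28.9 to 38.2), and replicate 6 for Slc14a1 (1.2, the others 0.234 to 0.561).

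In Uba1_OE, replicate 1 was far above the others for Krt15 (1170 CPM, the others 245 to 390), Cdsn (101, 20.6 to 31.2), Chac1 (49.4, 8.76 to 14.3), Krt13 (33.1, 2.74 to 7.18), Pax2 (20.3, 4.25 to 5.59), Fat2 (16.6, 2.41 to 3.99) and Slc14a1 (11.1, 0.833 to 1.3). All 7 are genes higher in gain. Replicate 3 was far above for Irf1 (51.6, 39.7 to 41.4) and Ifngr1 (30.3, 20.7 to 21.8), which were not mirrored. What set these tumors apart was not tested.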

How the results depend on the processing

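The correlation of the effects was negative in every fit that gave one, while the counts moved. DESeq2 called 2347 genes in loss, 227 in gain, 2554 for the difference, 224 between controls and 13 parallel. Each experiment fitted alone gave 492 in loss, 4 in gain and a correlation of -0.493. The correlation was -0.491 from log2(TPM + 1) means, -0.59 for genes of mean log2 CPM 5 or more, and -0.572 and -0.144 for genes at or above and below 1 CPM in culture. With at least 10 counts in every tumor, 1 gene differed between controls. The muscle score left 1051 differences and 399 mirrored genes, the leukocyte score 393 and 327, and 4 scores together 149 and 139, with 7 calls in gain and 2 parallel genes. Exchanged controls gave 222 mirrored genes, and either stricter rule gave 0. Loss calls were 557 without the sgUba1 tumors that retained Uba1 RNA. Without the pair that stood apart, an alternative chosen after seeing the data, loss gave 294, gain 10, the difference 588 and mirrored genes 397. Leaving out 1 tumor gave 135 to 1980 loss calls, 0 to 19 in gain, 753 to 2067 differences, 1 to 166 between controls, 428 to 1072 mirrored and 0 to 1 parallel genes, and correlations of -0.391 to -0.225. Mirrored genes fell to 475, 509 and 428 without EV replicates 1, 2 and 3 (780, 819 and 753 differences) and to 505 without Uba1_OE replicate 1 (1095). Without sgNC replicate 2 they were 553, with 782 differences, 135 loss calls, 19 gain calls and a correlation of -0.225. Loss calls were 642 without sgNC replicate 3 and 861, 869 and 931 without sgUba1 replicates 4, 6 and 7, gain gave 1 without Uba1_OE replicate 4, and 166 genes differed between controls without sgNC replicate 1. In all 17 such fits 228 genes stayed mirrored. In the other experiments, chosen after seeing the data, leaving out 1 library gave 524 to 717 (TAK-243), 425 to 462 (B16-BL6) and 487 to 520 (cultured cells) genes on the side of loss. Replicate numbers did not pair the tumors (19 same-number pairs, correlations of deviations -0.259 to 0.144), and the replicate block gave 14 calls in loss, 4 in gain, 707 differences and 530 mirrored genes. Single genes changed the sign of loss minus gain in some fits. Stub1 was at -0.00025 (RLE), -0.00629 (no filter), -0.000865 (DESeq2), -0.0677 (leukocyte score), -0.0687 (without the pair) and -0.0483 to 0.0384 with 1 tumor left out. With the leukocyte score Irf1 was at -0.838, Ifngr1 at -0.382, C1qc at -0.0543 and B2m at -0.137. With 4 scores Irf1 was at -1.72, Ifngr1 and Ciita at -0.428, Igtp at -0.278, Prf1 at -2.07, Cxcl10 at -0.781, Tgtp2 at -0.535, Cxcl9 at -0.55 and Psmb9 at -0.56. Without the pair B2m was at -0.113, and with 1 tumor left out Ifngr1 was at -0.0806 to 0.25. The causes were not tested.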
